A study of Mus musculus with 14 samples.

Results

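Methylated DNA inside the exons of protein-coding genes, away from their promoters, was examined in mouse induced pluripotent stem (iPS) cells, embryonic stem (ES) cells and embryonic fibroblasts (MEFs) by MBD-seq. In this assay a protein with a methyl-CpG binding domain pulls methylated fragments out of sheared DNA, and the fragments are then sequenced. A pile of sequence tags, called as a peak in each sample on its own, marks a captured stretch. A peak was taken as an exon peak when its summit, the position with the most tags, lay in an exon of a protein-coding gene and more than 1 kb from every protein-coding 5′ end, on chr1 to chr19. Of 1012200 peaks in the 14 samples, 185771 met this rule. Their summits lay in inner exons in 135817 peaks, in last exons in 47790, in first exons in 881 and in the only exon of single-exon genes in 1283. Peaks of the 14 samples that overlapped were merged into regions, and 22943 of 147237 regions, in 10744 genes, were exon regions because most of their peaks were exon peaks. Summits on either side of the 1 kb limit differed little as a description. The 1152 exon summits at 1000 to 1100 bp had a median fold enrichment over the local background of 14.2 and a median of 10 CpGs in the 201 bp around the summit, and the 1137 exon summits at 900 to 1000 bp, which the rule left out, had 14.4 and 10.

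There were 4 iPS clones with Aid (Aid+/+), 4 without it (Aid-/-), 3 lines of ES cells and 3 cultures of Aid+/+ MEFs, all labelled male except ES replicate 3, whose labels give no sex. Passage 6 was used for iPS cells and passage 3 for MEFs, which both carried a Nanog-GFP reporter on a mixed C57BL6, DBA and 129S4 background. The Aid-/- clones differed by a disrupted Aid gene, which encodes the cytidine deaminase AID. Each iPS sample was 1 clone derived from MEFs with retroviruses for Klf4, Sox2 and Oct3/4, to which c-Myc was added for some clones of the study, was grown without feeder cells on gelatin, and had puromycin in its medium. The ES lines, also labelled as cultured on gelatin, were RF8 (129SV, passage 19, replicate 1), MG1.19 (129Ola, replicate 2) and B6 ES (C57BL6, replicate 3), without the reporter in their labels. The comparisons asked whether loss of Aid altered exon methylation of iPS cells, and how Aid+/+ iPS cells differed from the MEFs they came from and from ES cells.

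In mammals most CpGs of transcribed gene bodies are methylated, exons included, whereas CpG-rich promoters of active genes usually are not. Coding exons hold more CpGs per base than introns, because the genetic code uses CpG-containing codons, while methylated CpGs in non-coding DNA are lost over evolution by deamination. Capture by a methyl-CpG binding domain needs several methylated CpGs on 1 fragment, so a stretch without a peak may be unmethylated or simply CpG-poor, and which of these holds cannot be told apart from peaks alone.

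The coding sequence around the summit is shown for exon regions that were captured in all 14 samples, because it shows what the method caught in every cell type. In each sequence the capitals mark CG dinucleotides, and the stretch is the part of the exon within 100 bases of the summit, in the direction of the gene, from the NCBI37 (mm9) genome. Eif5b, inner exon 10 of 24, was read at chr1:38092966-38093118, plus strand. Rtcd1, inner exon 4 of 11, was read at chr3:116207263-116207386, minus strand. Gm216, last exon 10 of 10, was read at chr1:74415377-74415577, plus strand. Wdr81, first exon 1 of 10, was read at chr11:75266469-75266669, minus strand, and the single exon of Adam1a at chr5:121970106-121970306, minus strand. They held 14, 8, 19, 12 and 17 CGs, respectively.
Eif5b: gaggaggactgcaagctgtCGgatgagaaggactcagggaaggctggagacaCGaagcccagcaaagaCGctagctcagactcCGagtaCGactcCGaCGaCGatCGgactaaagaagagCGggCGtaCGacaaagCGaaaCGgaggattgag
Rtcd1: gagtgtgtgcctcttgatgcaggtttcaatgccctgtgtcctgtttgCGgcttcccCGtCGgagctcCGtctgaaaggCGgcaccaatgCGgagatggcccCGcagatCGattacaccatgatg
Gm216: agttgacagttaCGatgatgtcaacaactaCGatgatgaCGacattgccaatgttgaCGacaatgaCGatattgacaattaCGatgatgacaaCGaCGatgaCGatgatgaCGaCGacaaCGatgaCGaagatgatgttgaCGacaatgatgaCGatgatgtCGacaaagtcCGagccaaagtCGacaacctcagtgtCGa
Wdr81: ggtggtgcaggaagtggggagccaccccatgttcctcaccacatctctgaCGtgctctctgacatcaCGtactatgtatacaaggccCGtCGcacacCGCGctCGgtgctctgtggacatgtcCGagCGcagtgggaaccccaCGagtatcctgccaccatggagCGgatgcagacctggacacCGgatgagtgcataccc
Adam1a: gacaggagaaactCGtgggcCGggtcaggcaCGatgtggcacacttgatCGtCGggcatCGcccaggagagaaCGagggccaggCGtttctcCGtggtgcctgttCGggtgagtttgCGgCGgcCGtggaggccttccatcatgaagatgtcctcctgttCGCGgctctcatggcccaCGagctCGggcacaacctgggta

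The contrast is with exons of receptor gene families in which almost no exon peak was found. Olfr378, exon 2 of 2 of an olfactory receptor gene, was read at chr11:73238991-73239191, minus strand, and had 1 CG and a peak of 18 tags in ES replicate 2 alone. Vmn2r117, exon 3 of 6 of a vomeronasal receptor gene, was read at chr17:23614794-23614909, minus strand, and had 0 CGs in the exon stretch and a peak of 14 tags in Aid-/- iPS replicate 4 alone.
Olfr378: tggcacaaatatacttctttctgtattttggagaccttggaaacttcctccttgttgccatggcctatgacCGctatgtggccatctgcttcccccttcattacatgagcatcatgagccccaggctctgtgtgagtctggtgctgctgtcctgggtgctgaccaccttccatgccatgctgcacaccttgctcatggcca
Vmn2r117: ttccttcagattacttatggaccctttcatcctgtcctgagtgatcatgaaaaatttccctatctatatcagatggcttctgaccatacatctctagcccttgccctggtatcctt

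A further set is shown because these exons carried the differences described below. Myo1e, exon 20 of 28, had peaks in 4 of 4 Aid+/+ iPS clones and 0 of 4 Aid-/- clones and was read at chr9:70215423-70215537, plus strand. Tmem198, exon 3 of 5, had the opposite pattern and was read at chr1:75479218-75479418, plus strand. Zfp784, exon 2 of 2, had peaks in every iPS clone and ES line and in 0 of 3 MEF cultures, and was read at chr7:4987360-4987560, minus strand. 2610318N02Rik, exon 3 of 8, had the smallest adjusted p of the exon regions with more tags in MEFs, and was read at chr16:17121389-17121571, minus strand. They held 5, 13, 13 and 14 CGs, respectively.
Myo1e: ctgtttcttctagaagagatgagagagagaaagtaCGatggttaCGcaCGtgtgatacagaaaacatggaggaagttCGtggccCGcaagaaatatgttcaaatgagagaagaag
Tmem198: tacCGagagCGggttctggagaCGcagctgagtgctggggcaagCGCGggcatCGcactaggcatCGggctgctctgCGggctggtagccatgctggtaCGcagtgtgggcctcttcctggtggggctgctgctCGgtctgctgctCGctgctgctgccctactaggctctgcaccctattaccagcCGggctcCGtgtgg
Zfp784: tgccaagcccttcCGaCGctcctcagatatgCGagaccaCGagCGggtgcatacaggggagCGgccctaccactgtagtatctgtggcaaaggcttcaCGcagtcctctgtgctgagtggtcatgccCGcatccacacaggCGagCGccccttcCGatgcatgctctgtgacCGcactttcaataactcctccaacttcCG
2610318N02Rik: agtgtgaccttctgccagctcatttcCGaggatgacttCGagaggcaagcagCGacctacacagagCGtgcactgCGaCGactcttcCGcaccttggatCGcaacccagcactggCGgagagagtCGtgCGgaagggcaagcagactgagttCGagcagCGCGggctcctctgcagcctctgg

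Exons of the introduced reprogramming factors are shown because the iPS clones also carry retroviral cDNA copies of these genes. Klf4, exon 3 of 5, was read at chr4:55543448-55543648, minus strand, with 18 CGs. Myc, exon 3 of 3, was read at chr15:61821117-61821317, plus strand, with 10 CGs.
Klf4: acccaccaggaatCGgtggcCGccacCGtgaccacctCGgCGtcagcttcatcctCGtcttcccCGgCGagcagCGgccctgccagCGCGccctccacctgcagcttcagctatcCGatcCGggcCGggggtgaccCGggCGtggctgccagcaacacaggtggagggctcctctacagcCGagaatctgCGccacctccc
Myc: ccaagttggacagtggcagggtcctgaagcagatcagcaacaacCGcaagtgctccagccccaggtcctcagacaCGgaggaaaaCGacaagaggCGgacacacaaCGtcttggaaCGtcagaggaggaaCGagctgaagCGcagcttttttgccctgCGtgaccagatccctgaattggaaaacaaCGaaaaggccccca

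The libraries held 20.1 to 36.9 M total tags, of which 6.65 to 19.6 M remained after the removal of duplicates, and 31650 to 106408 peaks on chr1 to chr19. ES replicate 2 stood apart from all other libraries, with 4233 exon peaks where ES replicates 1 and 3 had 10618 and 18828, and with 7.13% of its peak tags in exon peaks, where the highest library had 21.6%. Libraries whose file headers gave the same run prefix and version of the peak caller were treated as 1 processing run. The first Aid+/+ clone was in run A with Aid-/- clones 1, 2 and 4, and the other Aid+/+ clones were in run B. MEF replicate 1 was in run C with Aid-/- clone 3 and all ES lines, and MEF replicates 2 and 3 were in run D. Only run A held both genotypes of iPS cells, and for MEFs and ES cells against Aid+/+ iPS cells run and group cannot be told apart. No pair of samples of a group shared more than 0.00597% identical peaks. As these are DNA libraries, the labelled cell types were not checked against marker gene expression.

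Exon peaks made up a similar share of all peaks in the iPS clones and a lower one in 1 ES line. The share was 19.4%, 17.9%, 17.9% and 17.2% in Aid+/+ iPS replicates 1 to 4, with 14479, 15024, 17146 and 18287 exon peaks. It was 18.7%, 18.7%, 18.0% and 18.7% in Aid-/- iPS clones, with 16367, 16416, 15521 and 12314 exon peaks. In MEFs it was 20.2%, 20.0% and 19.01%, with 9203, 10965 and 6370 exon peaks, and in ES cells 18.9%, 13.4% and 18.5%. The 3 MEF values overlapped those of Aid+/+ iPS cells at the replicate with the highest share, and ES replicate 2 was the lowest of the 14 samples. The group means were 18.1 ± 0.911% (SD, n = 4), 18.5 ± 0.363% (SD, n = 4), 19.7 ± 0.623% (SD, n = 3) and 16.9 ± 3.09% (SD, n = 3), respectively. None differed from Aid+/+ iPS cells beyond the spread between samples, with exact two-sided permutation p = 0.314 for Aid-/- iPS cells, 0.0857 for MEFs and 0.657 for ES cells. The smallest p that 3 or 4 samples against 4 can give is 0.0286, and the p-values of 15 such tests were adjusted together by the Benjamini-Hochberg (BH) method. The iPS samples were separate clones and the ES samples separate lines, and the study established its MEFs from single embryos. The p-values thus measure the spread between such clones, lines and cultures. Within each genotype the iPS clones came in pairs that share the number opening the clone name. The paper labels some of its experiments with such numbers, so each genotype may rest on fewer inductions than clones. The permutation tests treated the clones of a pair as separate samples. Whether a pair shared a MEF culture is not given in the labels.

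Within the exon peaks, MEFs had more of their summits in last exons and fewer in inner exons than Aid+/+ iPS cells. The last exon share was 25.5%, 24.3%, 24.9% and 25.4% in Aid+/+ iPS cells and 27.7%, 27.5% and 28.5% in MEFs, without overlap. The means of 25.03 ± 0.529% (SD, n = 4) and 27.9 ± 0.545% (SD, n = 3) differed by 2.86 percentage points (exact two-sided permutation p = 0.0286, BH-adjusted p = 0.143). The inner exon share was 73.1%, 74.7%, 74.1% and 73.6% in Aid+/+ iPS cells and 71.04%, 71.3% and 69.8% in MEFs, again without overlap, and the difference was -3.15 points (exact p = 0.0286, BH-adjusted p = 0.143). When the same number of most significant peaks, 31650, was taken from each sample, the differences were 2.43 points (exact p = 0.0571) and -2.95 points (exact p = 0.0286). These differences did not pass the correction. At these group sizes a difference with the smallest possible p of 0.0286 could pass only if many of the 15 tests reached it.

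The last exon share was also higher in each Aid-/- clone than in each Aid+/+ clone, by a small margin. It was 25.8%, 25.5%, 25.8% and 26.8% in Aid-/- iPS cells, a mean of 26.0 ± 0.586% (SD, n = 4), and the difference of 0.946 points had an exact two-sided permutation p of 0.0286 and a BH-adjusted p of 0.143. With an equal number of peaks it was 0.394 points (exact p = 0.543). Within run A, the Aid+/+ clone had 25.5% and the 3 Aid-/- clones 25.5 to 26.8%. The inner exon share was 72.9%, 73.2%, 73.2% and 71.6% in Aid-/- clones (exact p = 0.0857). ES cells had last exon shares of 24.5%, 24.9% and 25.4%, within the range of Aid+/+ iPS cells, and first exons took 0.320 to 0.832% of exon peaks over the 14 samples, from 23 to 86 peaks a sample.

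**Figure D1:**
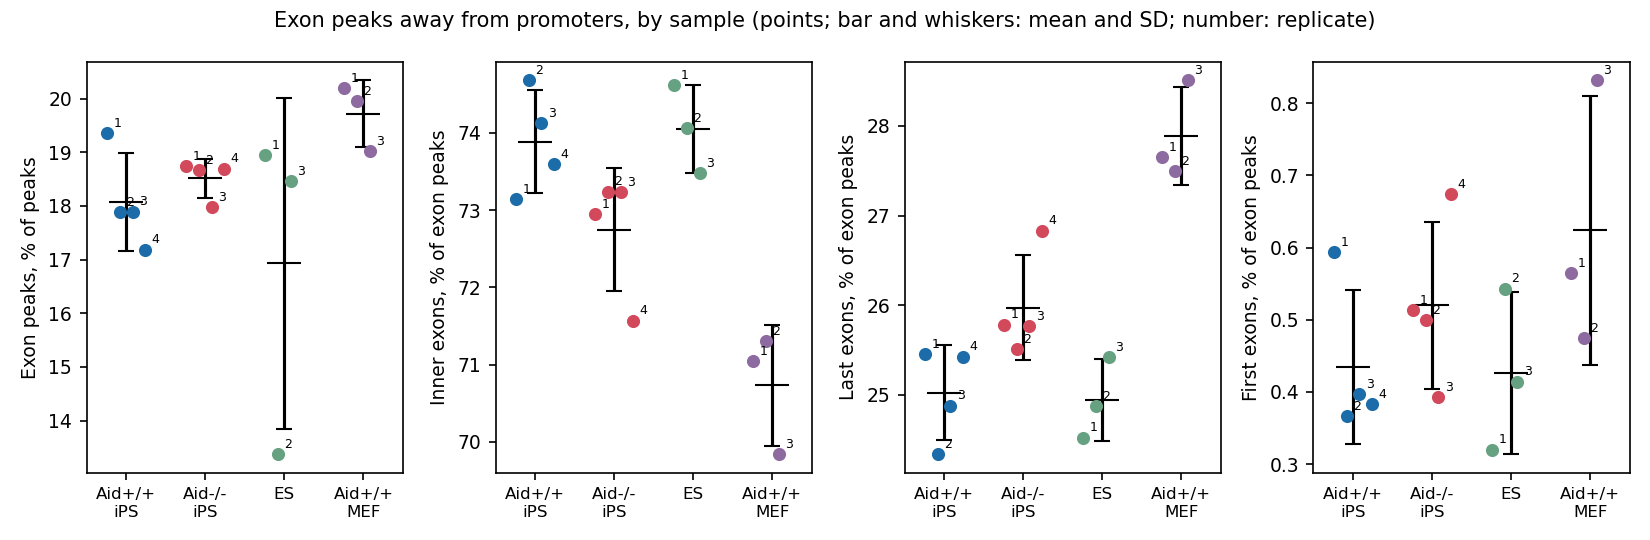
Share of all peaks that were exon peaks, and shares of the exon peaks with a summit in inner, last and first exons, in percent (vertical axes, which do not start at 0), for each of the 14 samples by group (points), with the group mean and SD. The 3 MEF samples sit between 27.5 and 28.5% in the last exon panel, above the 4 Aid+/+ iPS samples at 24.3 to 25.5%, and ES replicate 2 is the lowest point of the exon share panel at 13.4%.

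Peaks at inner exons were wider than the exon, and peaks at last exons narrower. Over the 14 samples, the mean of the sample medians was 44.0 tags, a length of 639 bp and a GC content of 56.8% around the summit. Inner exons with a summit had a median length of 184 bp, so that 37.1% of a typical peak lay in the exon and the rest in flanking introns. Last exons with a summit had a median length of 1865 bp and covered 87.7% of the peak. Most exon summits were in coding sequence, 88.0 to 91.4% by sample. In last exons, which end in the 3′ untranslated region (UTR), the coding share of summits was 61.5 ± 2.77% in Aid+/+ iPS cells (SD, n = 4), 63.7 ± 2.82% in Aid-/- iPS cells (SD, n = 4), 63.8 ± 2.23% in ES cells (SD, n = 3) and 72.1 ± 3.46% in MEFs (SD, n = 3). The lowest MEF value, 68.7%, is given as a description and not as a test.

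Compared with intron peaks of the same sample, exon peaks were slightly more enriched and richer in CpG. There were 299139 intron peaks, defined with the same 1 kb limit. The median fold enrichment was 15.1 for exon peaks and 14.04 for intron peaks, each the mean of 14 sample medians, and the median number of CpGs around the summit was 9.57 and 8.64. The within-sample difference in median log2 fold enrichment was 0.107 ± 0.076 (SD, n = 14) and above 0 in 13 of 14 samples (exact two-sided sign-flip permutation p = 0.000244). The difference in CpG number was 0.929 ± 0.267 (SD, n = 14), also above 0 in 13 of 14 samples (exact p = 0.000244). Among the stronger peaks the log2 difference did not hold: with peaks at p of at most 1e-10 it was 0.0187 (exact p = 0.189). With an equal number of most significant peaks it was 0.00449 (exact p = 0.887). The CpG difference was smaller in these settings, at 0.357 (exact p = 0.0625) and 0.286 (exact p = 0.125), respectively. Median CpG numbers move in steps, and samples with a difference of 0 raise the smallest p that this test can give. Whether the CpG difference held among the stronger peaks was therefore not decided by it. By group the log2 difference was 0.108 in Aid+/+ clones, 0.040 in Aid-/- clones, 0.091 in ES cells and 0.211 in MEFs. The difference of -0.067 between genotypes (exact p = 0.0286, BH-adjusted p = 0.0857 over 12 tests chosen after the data were seen) became -0.010 with an equal number of peaks (exact p = 0.629), whereas that of 0.10 between MEFs and Aid+/+ iPS cells became 0.18 (exact p = 0.0286, BH-adjusted p = 0.114).

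Peaks were denser in exons than in introns even when counted per CpG. The exons that the rule could reach covered 52.7 Mb, 2.20% of chr1 to chr19, and held 252 peaks per Mb on average over the 14 samples, whereas introns covered 842.7 Mb and held 25.4 peaks per Mb. CpGs were more frequent in inner exons, at 26.1 per kb, than in last exons, at 14.2, and in introns, at 8.58. Per 1000 CpGs there were 16.4 peaks in inner exons, 8.36 in last exons, 5.49 in first exons and 5.23 in single exons, against 2.96 in introns and 1.67 within 1 kb of a 5′ end, where most CpG-rich promoters lie. The order of inner exons, last exons and introns was thus kept after division by the number of CpGs. Capture needs several CpGs on 1 fragment, so this division does not remove CpG density. The part of CpG density in the order was not tested.

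The density per CpG differed within exons in the same way in every sample. CpGs themselves were more frequent in the coding part of last exons, at 27.8 per kb, than in their 3′ UTR, at 11.2. The part of this in the ratio below was not tested. In last exons, 15.2 peaks per 1000 CpGs lay in the coding part and 4.65 in the 3′ UTR, and the ratio of the parts was 2.69 to 5.74 by sample and above 1 in 14 of 14. It was 2.97 ± 0.371 in Aid+/+ iPS cells (SD, n = 4), 3.27 ± 0.428 in Aid-/- iPS cells (SD, n = 4), 3.27 ± 0.299 in ES cells (SD, n = 3) and 4.85 ± 0.848 in MEFs (SD, n = 3), and MEFs did not overlap with Aid+/+ iPS cells (difference 1.88, exact two-sided permutation p = 0.0286, BH-adjusted p = 0.0857; with an equal number of peaks 1.13, exact p = 0.0286, BH-adjusted p = 0.114). The density of last exons over that of introns was 3.75 ± 0.196 in MEFs and 2.64 ± 0.308 in Aid+/+ iPS cells (difference 1.11, exact p = 0.0286, BH-adjusted p = 0.0857; with an equal number of peaks 0.883, exact p = 0.0286, BH-adjusted p = 0.114). For inner exons over introns the ratios were 6.57 ± 0.316 and 5.37 ± 0.562 (exact p = 0.0571, BH-adjusted p = 0.137), and over all samples 4.43 to 6.92.

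Inner exons held fewer peaks per CpG near the start of a gene. Their density went from 11.7 peaks per 1000 CpGs at 1 to 2 kb from the nearest 5′ end to 18.0 beyond 50 kb, as a mean over the 14 samples. In Aid+/+ iPS cells it went from 13.9 to 23.0. In MEFs it went from 8.57 to 11.4 at intermediate distances and was 10.3 beyond 50 kb. These are descriptions, and the difference in shape was not tested.

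**Figure D2:**
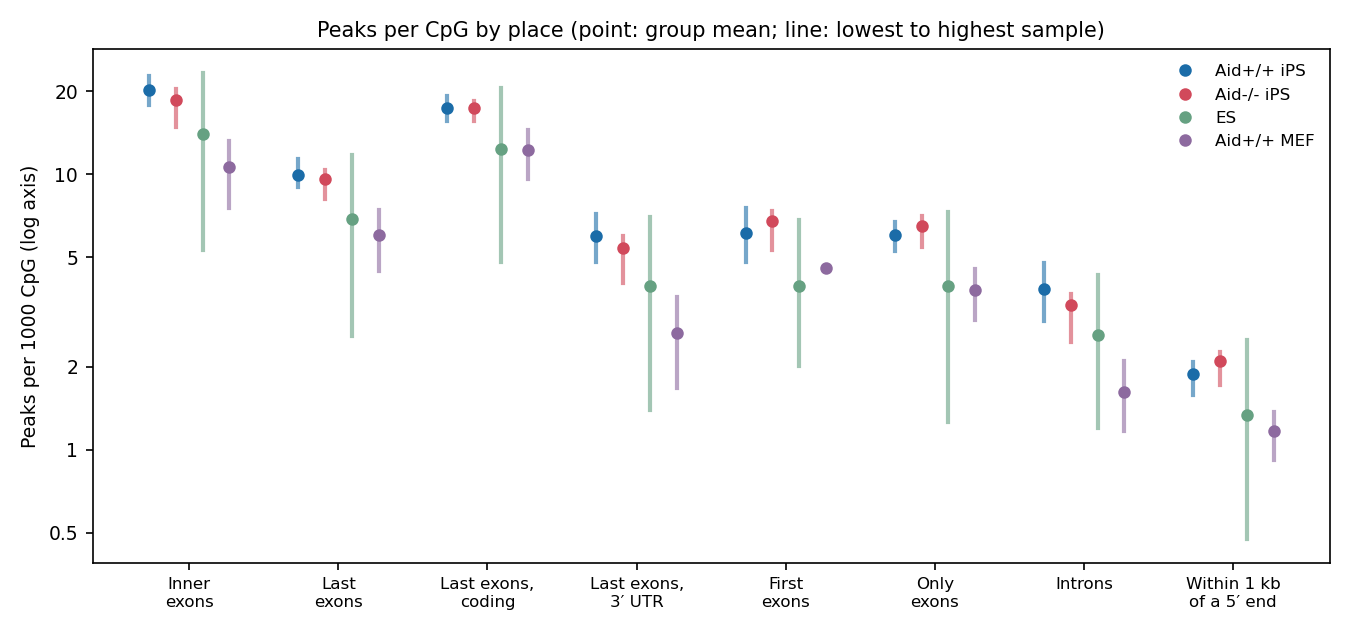
Peaks per 1000 CpGs (logarithmic vertical axis) in first, inner, last and single exons, in the coding part and 3′ UTR of last exons, in introns and within 1 kb of a 5′ end, by group. Points are group means and lines run from the lowest to the highest sample. Among whole exon classes, introns and positions within 1 kb of a 5′ end, inner exons are the densest in every group, with a mean over all samples of 16.4. Positions within 1 kb of a 5′ end are the least dense, with 1.67. In MEFs the coding part of last exons, at 12.3, lies above inner exons, at 10.6.

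Whether an exon was captured went with the number of CpGs it held. Of 153321 inner exons, 13.6% had a summit in at least 1 sample and 0.887% in all 14. The share with a summit in at least 1 sample was 0.610% of inner exons with 0 to 2 CpGs, 7.57% with 3 to 5, 46.7% with 6 to 10, 75.6% with 11 to 20 and 82.5% with more than 20. Of 25033 last exons 24.0% had a summit, from 0.465% to 61.9% over the same classes, with 10.4% at 6 to 10 CpGs. First exons, 441 in number, had a summit in 30.6%, and single exons, 1163 in number, in 17.0%. In inner exons with 6 to 10 CpGs the mean share per sample was 27.99% in Aid+/+ and 24.8% in Aid-/- iPS clones, 18.7% in ES cells and 10.7% in MEFs, but in those with more than 20 CpGs it was 55.4%, 58.9%, 43.0% and 55.1%. Among inner exons, MEFs thus had a smaller share than iPS cells at a moderate CpG number and a share close to that of Aid+/+ iPS cells in the richest. Last exons differed from this, since with more than 20 CpGs the shares were 41.5%, 41.4%, 29.6% and 29.5%.

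**Figure D3:**
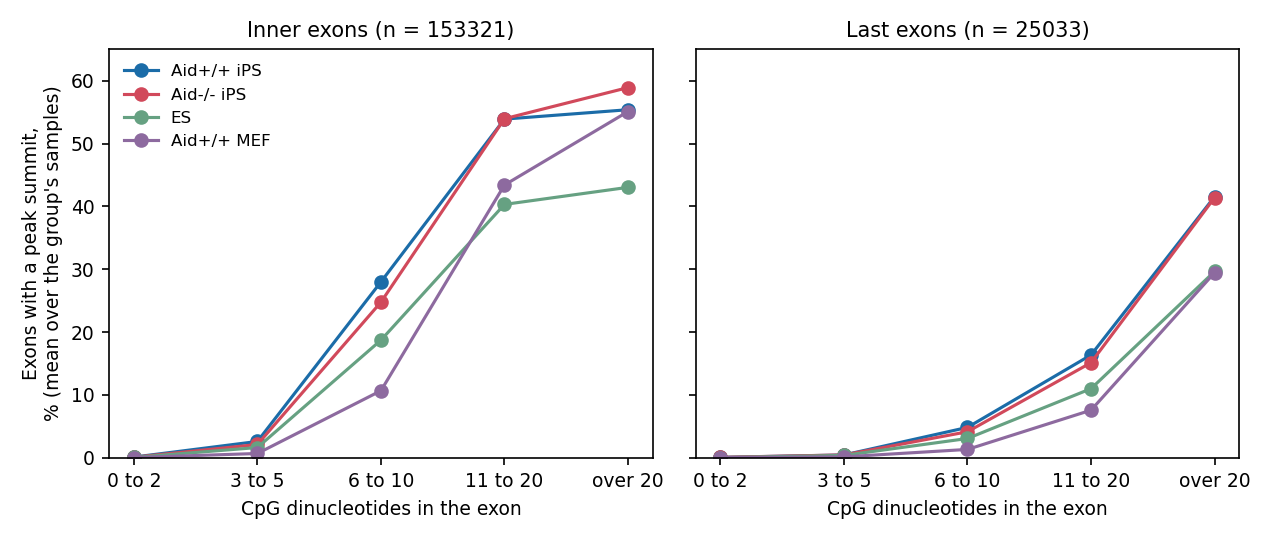
Share of exons with a peak summit (vertical axis, percent) by the number of CpGs in the exon, for 153321 inner and 25033 last exons, as group means over samples. In inner exons the share climbs with CpG number in every group. MEFs lie at 10.7% and Aid+/+ iPS cells at 27.99% for 6 to 10 CpGs, and at 55.1% and 55.4% above 20 CpGs.

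Exon regions recurred across samples slightly more often than regions elsewhere. A peak was present in all 14 samples in 2392 exon regions, 10.4%, against 9.90% of all regions, and in 1 sample in 13.0% against 22.3%. By class, 16.4% of first, 10.6% of inner, 9.88% of last and 5.45% of single exon regions had a peak in all 14 samples. The 2392 regions belonged to 1949 genes, of which 306 had at least 2 and 12 at least 5. Several genes with many, named after their values were seen, encode very long proteins. Ttn, the giant spring of the sarcomere, had 10, Cdh23, a cadherin of hair cells, 9, and Fat1, a giant cadherin, 7. Such genes hold many exons, and no rate per exon was computed. Not all of the 12 encode proteins of this length, with Aldh18a1 and Pcdha11 at 5 each.

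The regions named for recurrence were those with the highest minimum fold enrichment in each class. Eif5b encodes a translation initiation factor that helps join the ribosomal subunits. Its exon 10 had 366, 207, 248 and 168 tags in Aid+/+ iPS cells, 209, 191, 103 and 288 in Aid-/- iPS cells, 141, 132 and 290 in ES cells and 395, 344 and 360 in MEFs, at 35.8 to 44.0-fold enrichment. The MEF samples had high tag counts and the groups of iPS and ES cells overlapped. Rtcd1, an RNA 3′-terminal phosphate cyclase, had 102 to 350 tags at 32.8 to 47.1-fold. In last exons, Cd109, a membrane-anchored protein that binds TGF-β, had 101 to 291 tags and Gm216 148 to 755. In the first exon of Wdr81, a WD repeat protein of endosomes, there were 305, 234, 261 and 186 tags in Aid+/+ iPS cells, 238, 180, 137 and 209 in Aid-/- iPS cells, 148, 59 and 244 in ES cells and 200, 134 and 104 in MEFs, so that all groups overlapped. The first exon of Pcdha11, a clustered protocadherin, had 33 to 484 tags. The single exon of Adam1a, a fertilin subunit of sperm, had 42 to 413 tags, and that of Kcna6, a voltage-gated potassium channel, 65 to 296. Tags at the lincRNA genes Gm16599 or Gm17456, which overlap the exons of Cux1 and Kcna6 on the opposite strand, come from the same DNA and cannot be told apart from those of the exons.

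Loss of Aid was accompanied by few exon regions present in 1 genotype and absent from the other. A peak in every Aid+/+ clone and no Aid-/- clone was found in 24 of 11264 exon regions with a peak in every Aid+/+ clone, 0.213% against 0.386% of all regions so defined. These were 14 inner and 10 last exon regions. In the other direction there were 5 of 10543, all in inner exons, 0.0474% against 0.0813% of all regions. In 9463 exon regions every clone of both genotypes had a peak. Of the 24 and 5 regions, 1 and 0 were left when peaks at p of at most 1e-10 were required in the carrying clones. This rule of presence and absence gives no p-value. Leaving out a clone relaxes the rule, so that the counts of 24 and 5 can only rise or stay. Without Aid+/+ iPS replicate 1 they were 189 and 64, without Aid+/+ replicate 2, Aid-/- replicate 1 or Aid-/- replicate 2 the 24 became 53, without Aid-/- replicate 3 they were 64 and 47, without Aid+/+ replicates 3 and 4 the 24 became 38 and 37, and the 5 became 19 without Aid+/+ replicate 4, 8 without Aid-/- replicate 1 and 22 without Aid-/- replicate 4.

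The 24 exon regions found only in Aid+/+ iPS cells had 12 to 55 tags in these clones. Their median of 20.0 was below the 63.0 of all 11264 exon regions with a peak in every Aid+/+ clone, as a description. Exon 20 of Myo1e, a class I myosin, had 19, 25, 33 and 19 tags in Aid+/+ iPS cells and 24 in ES replicate 3, with no peak elsewhere. The last exon of Sdc2, a heparan sulphate proteoglycan, had 20, 16, 25 and 18 tags and 19 in ES replicate 3. The 3′ UTR of Smad2, a transducer of TGF-β signals, had 21, 17, 19 and 22 tags and 29 in ES replicate 3. In all 3, the remaining samples had no peak, namely the Aid-/- clones, the other ES lines and the MEFs.

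Of the regions found only in Aid-/- iPS cells, the exon of Tmem198, a membrane protein, ranked first by the significance of the peak in its weakest clone. There were 31, 50, 27 and 38 tags in Aid-/- clones, 0 in Aid+/+ clones, 89 in ES replicate 3 and 67, 104 and 60 in MEFs. Exon 4 of Dctn6, a dynactin subunit, had 16, 15, 16 and 26 tags in Aid-/- clones, 74 in ES replicate 3 and 32, 52 and 0 in MEFs. Exon 12 of Pcbp4, an RNA-binding protein, had 16, 29, 11 and 16 tags in Aid-/- clones and 47 in ES replicate 3. A peak of ES replicate 3 was thus present at each of the 6 named regions.

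No exon region with a peak in all 8 clones was called different in tag count between the genotypes. In the edgeR quasi-likelihood test with BH adjustment, 0 of 9463 exon regions had more tags and 0 had fewer tags in Aid-/- iPS cells, beside 0% and 0.00209% of all 47835 regions tested. At an unadjusted p under 0.05 there were 319, 3.37% against 3.63% of all regions, and DESeq2 gave 0 and 0. By class these were 7 of 37 first (18.9%), 227 of 7000 inner (3.24%), 78 of 2358 last (3.31%) and 7 of 68 single exon regions (10.3%). The first and single exon regions were few, and the classes were not tested against each other. The median log2 difference of the exon regions was 0.03. On simulated counts of this design the test found 42 of 100 regions with a log2 difference of 1 and 100 of 100 with a log2 difference of 2, so that smaller differences may have been missed. Without Aid+/+ iPS replicate 1, 5 exon regions had more and 1 had fewer tags in Aid-/- clones. As an example, the log2 difference was 0.11 (SE 0.24) for Eif5b and 0.07 (SE 0.17) for Wdr81. With the clone series, the number that opens a clone's name, as a replicate block the calls were 0 and 0. Only series 979 held clones of both genotypes, 2 of each. The genotype difference of this fit rests on them, so its lack of calls cannot show that there was no difference.

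MEFs lacked many exon peaks that every Aid+/+ iPS clone had. A peak in every Aid+/+ iPS clone and in no MEF culture was found in 2690 of 11264 exon regions, 23.9% against 28.5% of all regions with a peak in every Aid+/+ iPS clone. By class these were 9 of 42 first, 2083 of 8406 inner, 569 of 2744 last and 29 of 72 single exon regions. In the other direction, 385 of 5880 exon regions with a peak in every MEF culture had none in Aid+/+ iPS cells, 6.55% against 6.44% of all regions, namely 1 of 42 first, 241 of 4133 inner, 134 of 1661 last and 9 of 44 single exon regions. MEFs also had fewer peaks in all, and with a limit of 1e-10 on the peak p in the carrying samples the 2690 became 1265. Without Aid+/+ iPS replicate 1 the counts were 4311 and 707, and without MEF replicate 2 the former was 4138.

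Zfp784, a zinc finger gene, gave the clearest exon peak that MEFs lacked. It had 142, 147, 166 and 159 tags in Aid+/+ iPS cells, 138, 121, 108 and 133 in Aid-/- iPS cells, 71, 45 and 164 in ES cells and no peak in MEFs. Exon 4 of Scaf1, an SR-related factor that binds RNA polymerase II, had 119, 109, 133 and 92 tags in Aid+/+ iPS cells, 90, 71, 47 and 83 in Aid-/- iPS cells, 46, 15 and 105 in ES cells and none in MEFs. Exon 37 of Itpr3, an inositol trisphosphate receptor, had 363, 334, 385 and 326, then 293, 238, 196 and 254, then 189, 19 and 334 in the same order, and none in MEFs. All 8 iPS clones and all 3 ES lines had these peaks.

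Clasrp, an SR-rich splicing protein, was the reverse case. Its exon 13, of 21, had 761, 649 and 830 tags in MEFs and no peak in any of the 11 pluripotent samples, at 15.9 to 16.8-fold enrichment. The last exon of Zfp324, a zinc finger gene, had 769, 647 and 768 tags in MEFs, 37, 47, 0 and 50 in Aid-/- iPS cells, 69, 0 and 222 in ES cells and none in Aid+/+ iPS cells. The last exon of Cux1, a homeobox gene, had 669, 527 and 626 tags in MEFs, 40 in Aid-/- iPS replicate 1 and 110 in ES replicate 3. The tag counts of these MEF peaks exceeded those of every region named above for iPS cells except Gm216.

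Among exon regions with a peak in every MEF and Aid+/+ iPS sample, many differed in tag count, and the direction depended on the scaling. With TMM scaling, edgeR called 1500 of 4609 exon regions with more tags in MEFs, 32.5% against 23.8% of all 21863 regions tested, and 645 with fewer, 13.99% against 20% (BH-adjusted p under 0.05). More tags were called in 15 of 28 first, 1045 of 3327 inner, 429 of 1231 last and 11 of 23 single exon regions, and fewer in 4, 482, 158 and 1. The 645 became 411 without Aid+/+ iPS replicate 3, 386 without MEF replicate 1 and 369 without MEF replicate 3. The median log2 difference was 1.188 in those called higher, -0.88 in those called lower and 0.15 over all exon regions, beside -0.05 over all regions. With the total tags of each library as the scale, 546 were higher and 827 lower, 11.8% and 17.9%, against 9.41% and 22.8% of all regions, and the median was -0.28 beside -0.50. These totals count tags before duplicates were removed, 27563519 to 30113820 in MEFs and 28386827 to 36919117 in Aid+/+ iPS cells. After removal MEFs had more, 17513215 to 19603100 against 9633649 to 15916182. Scaling by the tags that remained was not run. When limma was run on the log2 fold enrichment, it called 257 higher and 1291 lower, 5.58% and 28.01%, against 5.34% and 27.98%, and the median was -0.27 beside -0.27. Calls of more tags were thus 69.9%, 39.8% and 16.6% of the calls in exon regions under the 3 measures, and 54.3%, 29.2% and 16.03% in all regions. Whether exon regions gained or lost tags on balance in MEFs was therefore not settled by these counts.

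**Figure D4:**
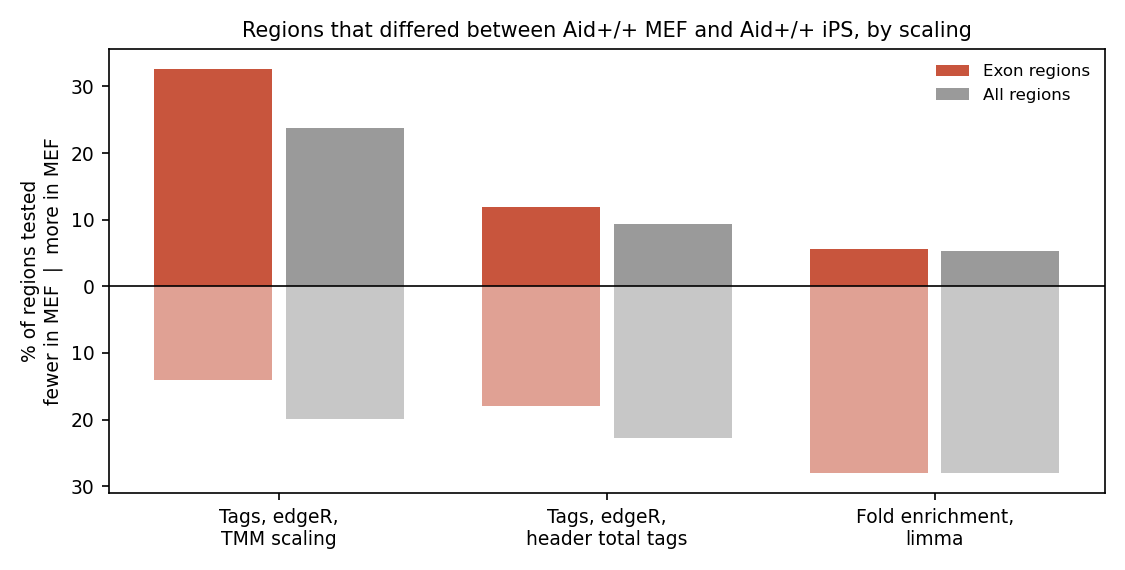
Share of tested regions called with more or fewer tags in Aid+/+ MEFs than in Aid+/+ iPS cells (vertical axis, percent), for exon regions (n = 4609) and all regions (n = 21863), under TMM scaling, scaling by the total tags of each library, and limma on the log2 fold enrichment. Under TMM more exon regions are called higher (32.5%) than lower (13.99%), and under fold enrichment the order is turned (5.58% and 28.01%).

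Some regions kept their direction under all 3 measures. Exon 3 of 2610318N02Rik had 40, 22, 33 and 13 tags in Aid+/+ iPS cells, 30, 26, 12 and 24 in Aid-/- iPS cells, 29, 0 and 91 in ES cells and 397, 315 and 350 in MEFs. Its log2 difference between MEFs and Aid+/+ iPS cells was 4.45 (SE 0.23, edgeR adjusted p = 2.9e-08), 3.94 by total tags and 1.04 by fold enrichment. Exon 5 of Nr3c2, the mineralocorticoid receptor, had 45, 20, 23 and 24 tags in Aid+/+ iPS cells, 42, 33, 19 and 45 in Aid-/- iPS cells, 18, 0 and 164 in ES cells and 324, 289 and 259 in MEFs, with log2 differences of 4.08, 3.59 and 0.92. In the other direction, exon 23 of Plekha6, a pleckstrin homology domain protein, had 167, 163, 178 and 129 tags in Aid+/+ iPS cells and 42, 32 and 33 in MEFs, with -1.48 (SE 0.22, edgeR adjusted p = 0.000146), -1.90 and -0.98. The last exon of Rims4, a presynaptic protein, had 268, 190, 229 and 149 tags and 48, 67 and 38, with -1.33 (SE 0.20, edgeR adjusted p = 0.000212), -1.81 and -0.47, the last of which did not pass limma's test (adjusted p = 0.108).

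Eif5b and Rtcd1, captured in every sample, changed their sign with the measure. Eif5b had a log2 difference of 1.31 by TMM-scaled tags (edgeR adjusted p = 0.000102) and -0.08 by fold enrichment (limma adjusted p = 0.56), and Rtcd1 1.44 and -0.13. Their MEF tag counts were high, whereas their fold enrichment was near that of the iPS clones. The first exon of Pcdha11 kept its sign. It had 342, 333 and 356 tags in MEFs and 135, 163, 119 and 134 in Aid+/+ iPS cells, and its log2 difference was 2.00 (SE 0.23, edgeR adjusted p = 2.02e-05), 1.58 by total tags (edgeR adjusted p = 0.00289) and 0.78 by fold enrichment (limma adjusted p = 0.0154).

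ES cells and Aid+/+ iPS cells shared most exon regions that the ES lines shared among themselves. A peak in every Aid+/+ iPS clone and no ES line was found in 146 of 11264 exon regions, 1.30% against 1.83% of all regions, and a peak in every ES line and no Aid+/+ iPS clone in 1 of 3765, 0.0266% against 0.12%. Of the 146, 109 were inner, 35 last, 1 first and 1 single exon regions. Without ES replicate 3, the library with the most exon peaks of the ES lines, the 146 became 2765. Without ES replicate 2, that with the fewest, the 1 became 123. Leaving out a sample relaxes the rule and can only raise these counts or leave them as they are. The 146 became 560 without Aid+/+ iPS replicate 1, and the 1 became 7 and 8 without ES replicates 1 and 3 and 2 or 3 without any of Aid+/+ iPS replicates 2 to 4. edgeR called 0 of 3681 exon regions with a peak in every sample with more tags and 0 with fewer in ES cells, beside 0.0134% and 0.00445% of all 22466 regions, with 189 exon regions (5.13%) at an unadjusted p under 0.05 and 6 and 5 calls by DESeq2. Without ES replicate 3, edgeR called 18 with more and 416 with fewer tags. On simulated counts the test found 19 of 100 regions with a log2 difference of 1, the lowest of the comparisons.

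Exon regions present in Aid+/+ iPS cells and absent from ES cells were led by a reprogramming factor. Klf4 exon 3 is described with the other factors. Exon 5 of Glis1, a Krüppel-like zinc finger gene, had 29, 37, 38 and 31 tags in Aid+/+ iPS cells, 20, 28, 25 and 19 in Aid-/- iPS cells and no peak in ES cells or MEFs. Exon 7 of Rnf41, an E3 ubiquitin ligase, had 81, 64, 73 and 83, then 57, 49, 37 and 57, and none in ES cells or MEFs. The single region of ES cells was exon 12 of Il6st, the gp130 subunit of the receptor for leukaemia inhibitory factor, with 31, 20 and 52 tags in the ES lines and 18 in Aid-/- iPS replicate 1.

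The exons of the introduced factors had peaks in all 8 iPS clones. Klf4 exon 3 had 96, 99, 137 and 65 tags in Aid+/+ iPS cells and 14, 310, 23 and 107 in Aid-/- iPS cells, at 8.26 to 14.5-fold enrichment, and no peak in ES cells or MEFs. Its summits lay 845 to 1504 bp from the nearest 5′ end, on both sides of the 1 kb limit. The last exon of Klf4, exon 5 of 5, had 43, 47, 46 and 24 tags in Aid+/+ iPS cells, 19, 56, 10 and 24 in Aid-/- iPS cells and 24 in ES replicate 3. Counts differed widely between clones of 1 genotype. The iPS clones carry retroviral cDNA copies of these factors, and tags of an integrated copy and of the gene's own exon cannot be told apart in these files.

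Exon 3 of Myc, the last of the gene, had peaks in all iPS clones and most other samples. It had 147, 369, 170 and 104 tags in Aid+/+ iPS cells, 36, 131, 117 and 91 in Aid-/- iPS cells, 22, 0 and 87 in ES cells and 164, 130 and 130 in MEFs. The fold enrichment was 8.65 to 11.7 in the iPS clones, 10.1 and 35.5 in ES replicates 1 and 3 and 28.3 to 34.3 in MEFs. MEFs and Aid+/+ iPS cells thus overlapped in tags, with a log2 difference of 0.20 (edgeR adjusted p = 0.646), but not in fold enrichment, with 1.72 (limma adjusted p = 0.000223). Within 1 kb of a 5′ end, and so outside the rule, Myc exon 2 had 43 to 698 tags, Sox2 61 to 1151 and Pou5f1 exon 1, the gene of Oct3/4, 39 to 139, each in 8 of 8 iPS clones and 0 of 6 other samples. Under the rule Sox2 had 0 exon peaks although 1325 bp with 47 CpGs of its exon were eligible, and Pou5f1 had 0 in 391 bp with 2 CpGs. Which clones received c-Myc is not given in the labels.

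**Figure D5:**
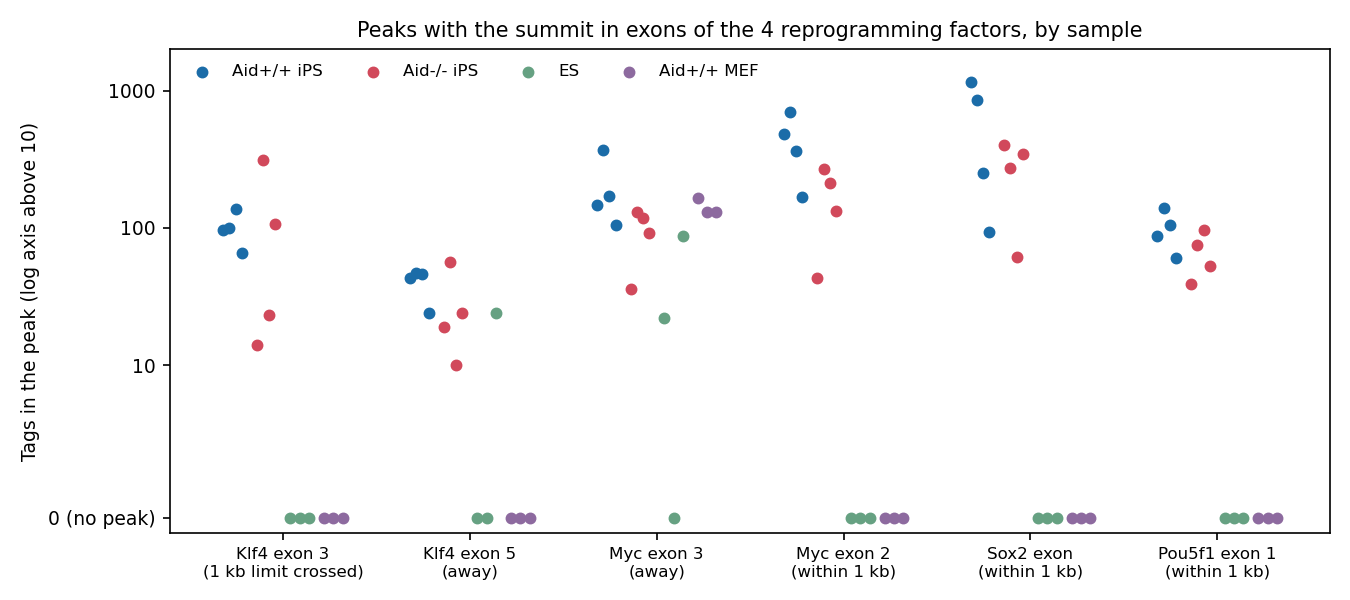
Tags of the peak at 6 exons of the reprogramming factors in each of the 14 samples (0 where no peak was called), by group. Klf4 exon 3 and exon 5, Myc exon 3 and the exons within 1 kb of a 5′ end of Myc, Sox2 and Pou5f1 carry peaks in all 8 iPS clones. At Sox2, Pou5f1, Myc exon 2 and Klf4 exon 3 the other 6 samples are at 0, and at Myc exon 3 the MEFs lie at 130 to 164.

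How often a gene held an exon region differed between gene families, together with the CpGs its exons offered. Over all 19264 genes with an eligible exon, 55.7% had an exon region, with a median of 39 eligible CpGs a gene. All 11 laminins, basement membrane proteins with a median of 188 CpGs, had one. The axon guidance genes of the semaphorins and plexins had 96.3% of 27 (129 CpGs), the ADAMTS proteases of the extracellular matrix 94.7% of 19 (124), the collagen chains 88.1% of 42 (123), the clustered protocadherins of neuronal identity 87.5% of 24 (58.5) and the voltage-gated calcium and potassium channels 82.8% of 99 (65). Zinc finger genes named Zfp, at 54.9% of 355 (40), were close to all genes. Ribosomal proteins had 40.7% of 81 (14). Olfactory receptors had 1 gene of 414, 0.242%, with a median of 0 CpGs, and vomeronasal receptors 2 of 183, 1.09%, with 7. These lists describe families and were not tested as sets.

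In MEFs against Aid+/+ iPS cells, several families had edgeR calls in both directions under TMM, beside 32.5% higher and 13.99% lower over all exon regions, and most directions depended on the scaling. Of 10 clustered protocadherin regions 9 were higher and 0 lower, with a median log2 difference of 1.75, and tags of these near-identical copies may be shared. By total tags 7 and 0 of them were called and by fold enrichment 4 and 0, so that no call was downward under any of the 3 measures. Of 78 tested Zfp regions 34 were higher and 6 lower under TMM, 16 and 9 by total tags, and 5 and 16 by fold enrichment, with medians of 0.44, -0.0023 and -0.063. Channels had 16 and 9 of 52 under TMM and 3 and 17 by fold enrichment. Collagens had 6 and 3 of 23 under TMM and 0 and 3 by fold enrichment, semaphorins and plexins 4 and 5 of 21 and then 0 and 4, ADAMTS proteases 5 and 4 of 14 and then 0 and 3, laminins 3 and 3 of 11 and then 1 and 2, and ribosomal proteins 4 and 2 of 8 and then 2 and 2.

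The region of each family with peaks in most samples was followed through the 3 measures. Exon 20 of Plxna4 was lower in MEFs under each, by log2 differences of -0.76, -1.16 and -1.44 for TMM, total tags and fold enrichment, and so was exon 2 of Adamts8, by -0.67, -1.13 and -1.04. Exon 4 of Lamc3 was called higher under TMM alone, at 0.76, and had 0.27 by total tags (edgeR adjusted p = 0.605) and -0.29 by fold enrichment (limma adjusted p = 0.304). Exon 3 of Zfp423, with 17 to 107 tags, did not pass under TMM at -0.60 (edgeR adjusted p = 0.133) but was lower by total tags at -0.97 (edgeR adjusted p = 0.0412) and by fold enrichment at -1.47 (limma adjusted p = 0.0021). Exon 2 of Kcnd2, with 19 to 179 tags, passed by fold enrichment alone, at -0.89 (limma adjusted p = 0.0182). Exon 3 of Col6a1, with 21 to 205 tags, passed under none of the 3. The exon of Rpl24, the last of an 11-exon gene model, had 16 to 100 tags in 13 samples. Its sequence around the summit codes for zinc fingers, so this exon does not represent a ribosomal protein. It was counted with the ribosomal proteins by the name of its gene model. No list had an edgeR call under TMM between the genotypes or against ES cells.

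Hox genes, which pattern the body axis, had exon regions in MEFs and none that every sample of a pluripotent group shared. Of 38 Hox genes 18 had an exon region in at least 1 sample, 0 had one in every Aid+/+ iPS clone, in every Aid-/- clone or in every ES line, and 7, 18.4%, had one in every MEF culture. Over all genes with an eligible exon these shares were 35.7%, 34.4%, 14.7% and 22.5%, so that the Hox share in MEFs was not above that of all genes. Of the 8 Hox exon regions with a peak in every MEF culture, 6 had none in Aid+/+ iPS cells, beside 6.55% of all exon regions so defined. The one with peaks in most samples, exon 2 of Hoxb1, had 35, 33 and 30 tags in MEFs, 21 in Aid+/+ iPS replicate 1, 15, 18, 0 and 32 in Aid-/- iPS cells and 71 in ES replicate 3.

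Pluripotency genes had exon regions in MEFs too. Of 16 pluripotency genes 10 had an exon region, 2 had one in every Aid+/+ iPS clone, 4 in every Aid-/- clone, 0 in every ES line and 6 in every MEF culture. These were 12.5%, 25%, 0% and 37.5%, beside the 35.7%, 34.4%, 14.7% and 22.5% of all genes. Both regions tested against MEFs had more tags there under TMM, 1 of them by total tags and 0 by fold enrichment. The last exon of Zfp42, the gene of Rex1, had 55, 21, 35 and 37 tags in Aid+/+ iPS cells, 31, 24, 30 and 48 in Aid-/- iPS cells, 30, 0 and 206 in ES cells and 188, 176 and 124 in MEFs, which did not overlap with the iPS clones. Its log2 difference was 2.81 by TMM (edgeR adjusted p = 1.68e-06), 2.35 by total tags and 0.39 by fold enrichment, the last without passing limma's test (adjusted p = 0.242). Of 26 fibroblast genes 21 had an exon region, with 5 higher and 2 lower of 14 tested under TMM and 0 and 1 by fold enrichment, and of 18 germline genes 6 did, with 0 higher and 1 lower of 2, the latter exon 4 of Tuba3a, a tubulin of testis, at -1.11. Of 18 DNA methylation and demethylation enzymes 13 had one, with 3 higher and 1 lower of 8 tested under TMM and 0 and 1 by fold enrichment. Exon 17 of Dnmt3a, a de novo DNA methyltransferase, had 98 to 249 tags and did not pass. The 4 reprogramming factors had 2, with 0 higher and 0 lower of 1 tested under TMM.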

How the data were processed

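According to the submitters' processing notes, tags went through CASAVA 1.8.1 and were mapped to mm9 with BWA 0.5.9rc1, and MACS (1.4.1 or 1.4.0rc2 per the file headers) called peaks separately for every library. For each peak the authors deposited the tag count, the −log10 p-value multiplied by 10 and the fold enrichment over the local background, a ratio. No replicates were pooled. Members and gene lists were chosen with earlier results of these data known.

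Exons came from GENCODE protein-coding transcripts of NCBI37, and an exon's class from the transcript with the most exons. For 95.6% of exon peaks the class was the same in every transcript. Means of samples were compared by exact two-sided permutation tests. Tag counts of merged regions with a peak in every sample compared were tested in edgeR 4.0.16 (R 4.3.3; TMM, BH adjustment over all regions), a procedure tested on simulated data, and alternatives used DESeq2 1.42.0 and limma 3.58.1. A tag count is taken over the sample's own peak, whose length varies, and 0 means no peak called. Depth is given above, and intervals were not computed since samples are the replicates.

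Named regions were the 2 per exon class with the highest minimum fold enrichment over all 14 samples, up to 3 per side of each presence comparison by peak significance, the 2 per direction with the smallest adjusted p, and for each gene list the region with peaks in most samples, with the reprogramming factors described in full. Replicate numbers were given in sample order and pair no samples. Clone series shared between the genotypes was the only candidate block. The peaks at the targeted gene itself are not reported here.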

Additional observations from a re-analysis of the deposited data

Results flagged for a closer look

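In 84 sets of 4 iPS clones, covering the shares, the median fold enrichment and the tags of named regions, the extreme clone was compared with the others by its gap over the range of the set, with Dixon's 95% critical value as the limit. Chance gives about 1 in 20 such sets, and 6 were found. The exon share of peaks was 18.0% in Aid-/- iPS replicate 3, below the other 3 clones at 18.7%. The first exon share was 0.594% in Aid+/+ iPS replicate 1, above the other 3. The median fold enrichment of exon peaks was 14.5 in Aid+/+ iPS replicate 4, below the other 3. Dctn6 exon 4 had 26 tags in Aid-/- iPS replicate 4 and 15 or 16 in the others. Nr3c2 exon 5 had 45 tags in Aid+/+ iPS replicate 1 and 20 to 24 in the others. Dnmt3a exon 17 had 101 tags in Aid-/- iPS replicate 3, below the other Aid-/- clones.

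In 4 comparisons a contrast within samples differed between groups without overlap. The density of last exons over introns, per CpG, was higher by 1.11 in MEFs than in Aid+/+ iPS cells, and that of the coding part of last exons over their 3′ UTR by 1.88. The exon minus intron difference in median log2 fold enrichment was higher by 0.10 in MEFs and differed by -0.067 in Aid-/- iPS cells. Each had an exact two-sided permutation p of 0.0286, the smallest that these group sizes allow, and a BH-adjusted p of 0.0857. The 3 differences of MEFs kept their direction with an equal number of peaks, and that of Aid-/- iPS cells then was -0.010. Processing run and depth differ between these groups, and their part in the differences was not tested.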

How the results depend on the processing

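Of 372 alternative values 309 kept their direction and side of the threshold, or lay within the spread or within 1.5 times for counts, 4 lost significance, 43 moved and 16 changed sign. The causes were not tested. With peaks at p of at most 1e-10, the first exon share of ES against Aid+/+ iPS cells went from -0.00891 to 0.0360 points, the exon minus intron differences to 0.0187 in log2 fold enrichment and 0.357 in CpG number, and the regions present on 1 side only to 1 for Aid+/+ and 0 for Aid-/- clones, 1265 and 23 for the regions that MEFs and ES cells lacked, and 0 for ES cells. With an equal number of peaks the same first exon share was 0.110 points, the median fold enrichment of Aid-/- against Aid+/+ iPS cells went from 0.135 to -0.684, the exon minus intron differences were 0.00449 and 0.286, and, in alternatives chosen after the data were seen, the difference between ES and Aid+/+ iPS cells was -0.532 in the ratio of coding part to 3′ UTR and 0.0388 in the log2 difference. Counting any exon peak gave 2 regions for ES cells only. Common stretches of a group's peaks in place of merged regions gave 30, 7, 2764, 416, 155 and 1 regions, in the order of the comparisons.

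Exon regions with more tags in MEFs were 546 with library totals and 257 with limma on fold enrichment, those with fewer 331 with peak length as an offset and 1291 with limma. In ES cells, 1 had more tags with the offset, and DESeq2 gave 6 more and 5 fewer. The clone series as a replicate block gave 0 and 0 calls between the genotypes and is a shared number only. As only series 979 held both genotypes, this setting compared few clones.

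Leaving out 1 sample at a time, exon regions with more and fewer tags were 1271 to 1583 and 369 to 885 in MEFs, 0 to 5 and 0 to 1 in Aid-/- iPS cells and 0 to 18 and 0 to 416 in ES cells. Regions on 1 side only were 29 to 189 for Aid+/+ and 7 to 64 for Aid-/- iPS cells, 2761 to 4311 and 388 to 707 for the comparison with MEFs, and 157 to 2765 and 1 to 123 for that with ES cells. Counts of regions on 1 side only can only rise or stay when a sample is left out. The exon minus intron differences were 0.923 to 1.0 CpGs and 0.0913 to 0.115 in log2. For Aid-/- iPS cells, MEFs and ES cells against Aid+/+ iPS cells, the exon share differed by 0.141 to 0.863, 1.34 to 2.06 and -2.16 to 0.626 points, the first exon share by 0.0337 to 0.138, 0.0848 to 0.264 and -0.0676 to 0.0441, the inner exon share by -1.39 to -0.746, -3.44 to -2.71 and -0.113 to 0.456, the last exon share by 0.660 to 1.10, 2.55 to 3.05 and -0.327 to 0.124, and the median fold enrichment by -0.331 to 0.466, -2.89 to -1.46 and -2.71 to -1.06.

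The ES libraries differ most in their number of peaks, and in the comparison with ES cells leaving out replicate 2 or replicate 3 moved the counts most.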
